A study of Homo sapiens with 16 samples.

Results

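The immediate early transcription factor genes of the FOS, JUN and EGR families were followed in human pancreatic progenitors after actin was depolymerised with latrunculin B (LatB). The 10 genes FOS, FOSB, FOSL1, FOSL2, JUN, JUNB, JUND, EGR1, EGR2 and EGR3 were taken as a list of names, and the rule that picked them used no measured value. They were 10 of the 35810 genes in the summed tables, and all 10 passed the filter on low counts that left 16705 genes for testing.

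All 16 libraries came from SA121 human embryonic stem cells carrying an NGN3-GFP reporter, grown into pancreatic progenitors and sampled from day 19 of the differentiation. Control 0 h had 3 libraries and control 24 h, which received the vehicle DMSO, had 2. LatB at 0.5 µM had 3 libraries at 3 h, 3 at 6 h, 2 at 12 h and 3 at 24 h. The series text places control 0 h before treatment, whereas its sample tag reads DMSO, and the earlier LatB times had no vehicle group of their own here. A single reporter line was used, and nothing in the labels says that replicates came from separate cultures. P-values therefore measure only the spread between these libraries, which may be technical.

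Immediate early genes are switched on within minutes of a stimulus from factors that are already in the cell, and their mRNAs are usually short-lived. FOS and JUN proteins pair through leucine zippers to form AP-1, which binds TGACTCA and related sites, while EGR proteins are zinc finger factors that bind GC-rich sites. Serum response factor (SRF), bound to CArG boxes with ETS-family partners or with the actin-binding MRTF coactivators, is a textbook regulator of several of them. Latrunculins sequester actin monomers, and MRTF responds to the pool of free actin. The members' own levels were measured here, not the activity of any factor.

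Libraries held from 23609727 to 33515398 estimated reads. The labelled cell type was met by PDX1 at 109.7 to 173 TPM (a level corrected for transcript length and scaled to the same total in each library) and by SOX9 and NKX6-1 at 39.6 TPM or more in every library. PTF1A, another progenitor gene, stayed under 1 TPM. The pluripotency genes POU5F1 and NANOG had group means of 1.71 TPM or less, but LIN28A had group means of 93.2 to 182 TPM. Of 6 endocrine markers, 1 rose at 3 h of LatB, 3 at 6 h, 4 at 12 h and 3 at 24 h, and 0 fell. Over all genes tested, 16.8, 22.9, 19.1 and 21.9% rose at these times. NEUROG3, the gene that starts endocrine differentiation, was at 1.84 to 2.07 TPM at control 24 h and 22.6 to 50.2 TPM at LatB 24 h. SST (somatostatin) was at 38.8 to 48.0 TPM at control 0 h and 109.7 to 197 TPM at LatB 3 h. The 6 markers summed to 57.8 to 71.8 TPM at control 0 h and 132 to 231 TPM at LatB 3 h. They summed to 96.9 to 114.7 TPM at control 24 h and 112.9 to 437 TPM at LatB 24 h, so these ranges overlapped. The part of these markers in the members' changes was not tested. LatB 12 h replicate 2 stood apart. Its 7 mesenchyme markers summed to 428 TPM, against 60.3 to 131 TPM in the other 15 libraries, and its 5 liver markers reached 2439 TPM, against 993 TPM or less elsewhere. In RNA from whole cultures, fewer cells of a type and less RNA per cell cannot be told apart.

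The stretches that hold a searched motif in the bases before the start sites are shown first. EGR1 and EGR2 share some of these letters and differed in their calls at 3 h, and the difference between the genes was not tested. RefSeq promoters on GRCh38.p14 were taken by symbol for 8 of the 10 members, and the 250 bases before each start site were read on both strands. FOSL1 and EGR3 were not searched. Within these 250 bases EGR1 held 2 CArG boxes, 1 of the 3 EGR2 start sites held 1, and JUND held 1 TGACGTCA (a cyclic AMP response element). Bases further upstream were not read, so a member without a match here may hold one there. CArG boxes occurred in 1.16% of the 35116 promoters in the table and TGACGTCA in 1.65%. None of the 8 members searched held TGACTCA or TGAGTCA (4.2% of promoters), GCGTGGGCG or GCGGGGGCG (5.37%), or CCGGAAG (8.52%) in that window. Capitals mark the matches, each stretch has 30 bases on either side of them, and each is written 5′ to 3′ on the strand of its gene. They lie at chr5:138465344-138465435 (plus strand) for EGR1, chr10:62816398-62816467 (minus strand) for EGR2 and chr19:18281785-18281852 (minus strand) for JUND. None overlapped an annotated exon in GENCODE 44, and the EGR2 stretch lay in an intron of longer EGR2 transcripts, where another annotated gene, ENSG00000289487, also runs.
EGR1: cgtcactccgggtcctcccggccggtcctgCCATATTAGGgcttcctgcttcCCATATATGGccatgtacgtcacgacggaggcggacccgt
EGR2: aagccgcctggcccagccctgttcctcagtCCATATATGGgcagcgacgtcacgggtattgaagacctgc
JUND: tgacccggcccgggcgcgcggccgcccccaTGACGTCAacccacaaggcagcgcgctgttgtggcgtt
The EGR1 boxes began 105 and 83 bases before the start site and the EGR2 box 71 bases before it, with the letters of the second EGR1 box and of the EGR2 box identical. A match describes letters only, and whether a factor was bound was not measured.

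Before treatment the 10 genes spanned about 3 orders of magnitude in TPM. JUND was highest with 93.4 ± 4.66 TPM (SD, n = 3) at control 0 h, followed by JUN with 49.0 ± 3.34, FOSL2 with 11.5 ± 1.52, FOS with 6.17 ± 0.438 and JUNB with 5.19 ± 0.0732 TPM. Each of these neighbours in the order was separated in every library. EGR1 came next with 0.982 ± 0.103 TPM. Below it FOSL1 (0.161 to 0.569 TPM) and FOSB (0.204 to 0.360 TPM) overlapped, as did EGR2 (0.0176 to 0.230 TPM) and EGR3 (0.0620 to 0.105 TPM). EGR2 rested on 1 to 4 estimated reads per library at 0 h and EGR3 on 4 to 11, so their levels are the least precise.

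**Figure D1:**
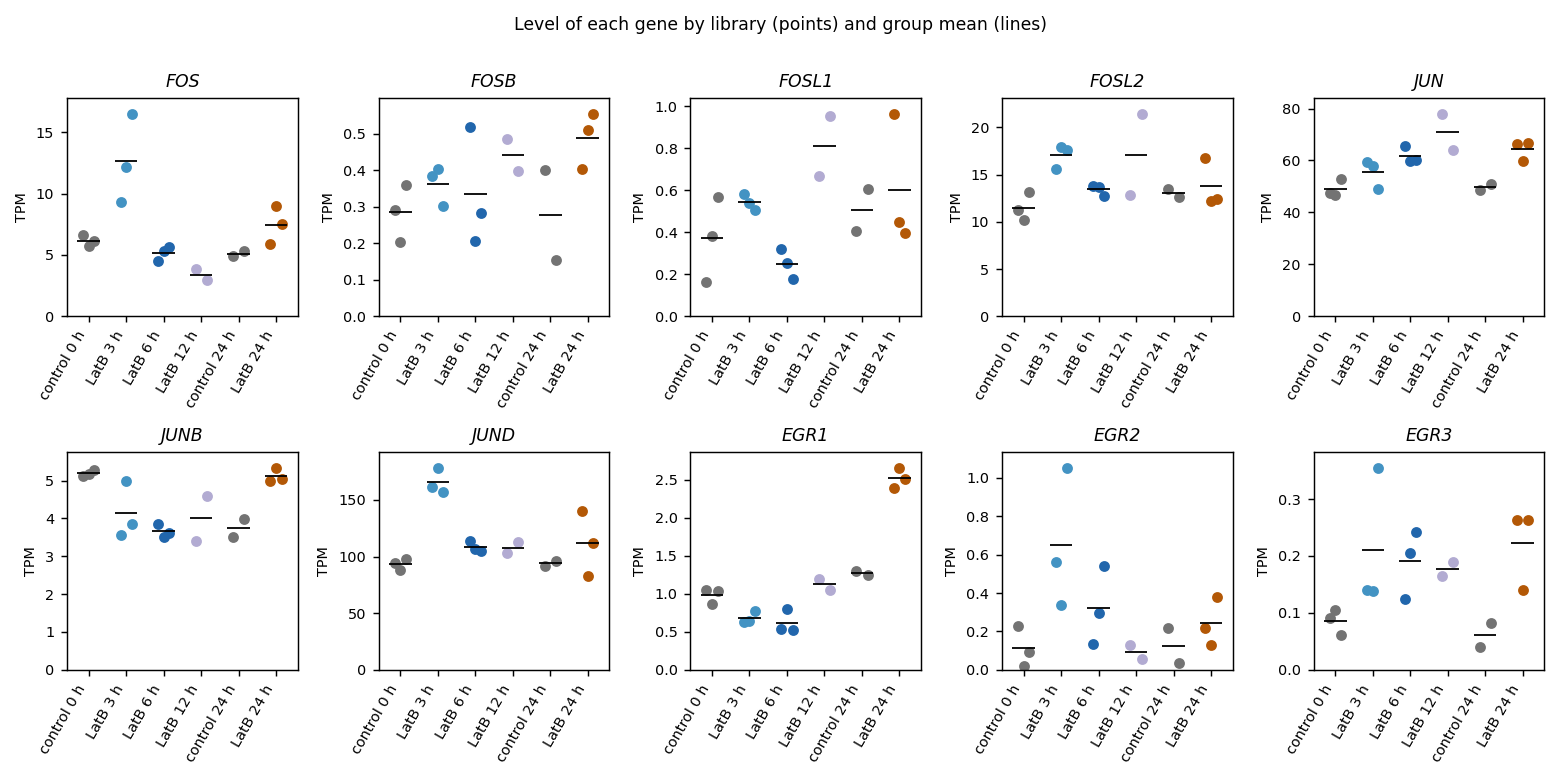
TPM of each of the 10 genes (vertical axes, from 0) in each library (points) of the 6 groups, with group means as lines. FOS, JUND and FOSL2 were highest or near highest in the LatB 3 h libraries, whereas the 3 LatB 24 h libraries of EGR1, at 2.39 to 2.66 TPM, lay above all others.

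At 3 h of LatB, 5 of the 10 members rose and 0 fell. Over all genes tested 31.6% were called in this comparison with control 0 h. The median log2 fold change of the members was 0.69, beside 0.00205 over all genes. FOS, FOSL2, JUND, EGR2 and EGR3 rose. The members that were called therefore included a gene of each family, and EGR1 was not among them.

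FOS, the archetypal immediate early gene and a partner of JUN in AP-1, was at 6.63, 5.76 and 6.12 TPM in the control 0 h libraries. It was at 9.33, 12.2 and 16.5 TPM at LatB 3 h. The groups did not overlap, although the treated libraries spread widely and replicate 3 was the highest. FOS rose by 1.14 ± 0.21 (SE) on the log2 scale, with an edgeR adjusted p of 0.000961.

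FOSL2 (FRA2), a FOS relative without the strong activation domain of FOS, was at 11.2, 10.1 and 13.1 TPM at control 0 h. At LatB 3 h it was at 15.6, 17.9 and 17.6 TPM, all above the controls. Its log2 fold change was 0.70 ± 0.12 (edgeR adjusted p = 0.000447). FOSB, whose protein also pairs with JUN, and FOSL1 (FRA1) had log2 fold changes of 0.64 ± 0.32 and 0.69 ± 0.44 that did not pass (edgeR adjusted p = 0.155 and 0.265). Both lay on few reads, at 15 to 34 per library for FOSB and 5 to 20 for FOSL1 in these 2 groups.

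JUND, the JUN protein most often found in resting cells, gave the most precise rise. It was at 94.1, 88.5 and 97.7 TPM at control 0 h and at 161, 178 and 157 TPM at LatB 3 h. The groups were far apart, with a log2 fold change of 0.87 ± 0.11 (edgeR adjusted p = 4.06e-05). JUN, the main partner of FOS in AP-1, changed by 0.28 ± 0.10 on the log2 scale and just missed the threshold (edgeR adjusted p = 0.0503). JUNB, which often restrains JUN, had a log2 fold change of -0.19 ± 0.12 (edgeR adjusted p = 0.262), and its groups did not overlap in TPM, with 5.13 to 5.27 TPM at control 0 h and 3.57 to 4.98 TPM at LatB 3 h.

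EGR2 (KROX20), known for hindbrain patterning and myelination, had 2, 1 and 4 estimated reads at control 0 h and 27, 20 and 38 at LatB 3 h. The groups did not overlap, and the log2 fold change of 3.35 ± 0.65 (edgeR adjusted p = 0.00154) was the largest of the 10 in this comparison. In TPM it was still low, at 0.560, 0.339 and 1.05 TPM in the treated libraries, and the ratio of the mean TPM was 5.75 against 10.2 on CPM (reads scaled to library size only), since reads were shared over transcripts of unequal length.

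EGR3, a target of calcium signalling in lymphocytes and neurons, had 4, 11 and 5 reads at control 0 h and 16, 14 and 28 at LatB 3 h. Its log2 fold change was 1.37 ± 0.44 (edgeR adjusted p = 0.0298). The call was lost without LatB 3 h replicate 3 (0.99, adjusted p = 0.151), without control 0 h replicate 1 (adjusted p = 0.103) and without control 0 h replicate 3 (adjusted p = 0.0920). The 7 mesenchyme markers summed to 131 TPM in that LatB 3 h replicate 3, the library with the most FOS, EGR2 and EGR3, and to 87.3 and 88.8 TPM in the other 3 h libraries. Their part in these values was not tested. Without that library FOS and EGR2 kept their calls.

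EGR1, the most abundant of the EGR genes before treatment, was at a lower level in the treated libraries. It was at 1.05, 0.864 and 1.03 TPM at control 0 h and at 0.630, 0.640 and 0.775 TPM at LatB 3 h. The groups did not overlap, but the log2 fold change of -0.41 ± 0.18 did not pass (edgeR adjusted p = 0.115). With control 24 h as the reference it passed, at -0.78 ± 0.20 (edgeR adjusted p = 0.00947). EGR1 and EGR2, which share the CArG letters shown above, thus differed in their calls at 3 h, although the difference between the genes was not tested.

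**Figure D2:**
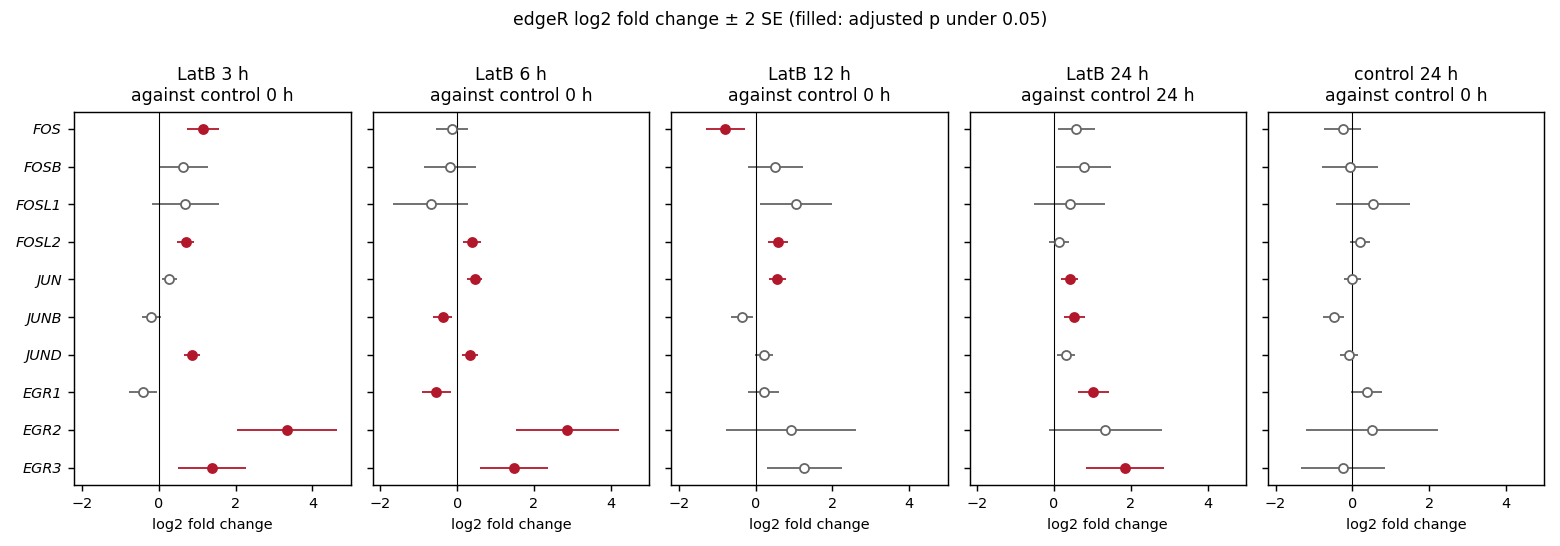
log2 fold change (horizontal axes) with bars of 2 SE for each gene in 5 comparisons, filled red where the edgeR adjusted p was under 0.05. The bars of EGR2 are the widest, and the comparison of the controls on the right has 0 called members.

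At 6 h of LatB, 5 members were higher than at control 0 h and 2 were lower, with 43.3% of all genes called. The median of the members was 0.0996, beside -0.0105 over all genes. EGR2 (2.86 ± 0.67), EGR3 (1.48 ± 0.44), JUN (0.45 ± 0.10), FOSL2 (0.39 ± 0.12) and JUND (0.34 ± 0.11) rose on the log2 scale. EGR1 (-0.54 ± 0.19) and JUNB (-0.38 ± 0.12) fell. The edgeR adjusted p of these 7 lay between 0.00246 (JUN) and 0.0317 (EGR1).

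FOS was back at 4.54, 5.33 and 5.69 TPM, below the controls in each library. On CPM the groups overlapped, at 6.2 to 7.75 against 7.07 to 8.33 at control 0 h. The log2 fold change of FOS, -0.14 ± 0.21, did not pass (edgeR adjusted p = 0.640). EGR2 had 7, 17 and 28 reads at 6 h, more than in any control 0 h library. JUN was at 65.5, 59.7 and 60.1 TPM, above the 47.6, 46.6 and 52.8 TPM of control 0 h, and was called in all 13 alternative fits, as EGR2 was in the 12 that gave an adjusted p for it. The other calls of 6 h were less firm. Those of FOSL2, JUNB, JUND, EGR1 and EGR3 were each lost when any of 2 to 4 of the 6 libraries was left out, with adjusted p up to 0.104, and those of FOSL2 and JUNB were also lost against control 24 h, where JUNB lay at 0.12 ± 0.14.

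Set directly against 3 h, 3 members fell by 6 h and 0 rose, beside 22.2% of all genes called. The median of the members was -0.40, against -0.00934 over all genes. FOS fell by 1.28 ± 0.21 on the log2 scale (edgeR adjusted p = 0.000910) and JUND by 0.53 ± 0.10 (edgeR adjusted p = 0.00312), and both passed in all 12 alternative fits. JUND was at 114, 107 and 105 TPM at 6 h, every library below every one of 3 h. FOSL1 fell by 1.37 ± 0.46 (edgeR adjusted p = 0.0494), from 16 to 20 reads per library to 5 to 7, and lost its call whichever of the 6 libraries was left out. EGR2 (-0.48 ± 0.51) and EGR3 (0.11 ± 0.40) had intervals too wide to tell a fall from none.

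At 12 h, FOSL2 and JUN were higher than control 0 h and FOS was lower, 3 of 10 members beside 35.8% of all genes. The median of the members was 0.54, against 0.0114 over all genes. JUN was at 77.9 and 63.9 TPM, both above control 0 h, and rose by 0.56 ± 0.11 on the log2 scale (edgeR adjusted p = 0.00164). FOS was at 3.84 and 2.95 TPM, the lowest values of the series, and fell by 0.79 ± 0.25 (edgeR adjusted p = 0.0248). FOSL2 was at 12.8 and 21.4 TPM, so the replicates lay further apart than in any other group, with a log2 fold change of 0.58 ± 0.13 (edgeR adjusted p = 0.00335).

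The higher FOSL2 and lower FOS of this time were those of replicate 2, the library with 428 TPM of mesenchyme markers. Without it the FOSL2 value was 0.29 ± 0.12 (edgeR adjusted p = 0.0731) and the FOS value -0.53 ± 0.30 (edgeR adjusted p = 0.215), so neither was called, while JUN was still called. Both calls were also lost against control 24 h (edgeR adjusted p = 0.0502 and 0.142). FOSL1 had 11 and 32 reads, the latter in replicate 2. The part of the other cells' markers in these values was not tested. EGR3 (1.27 ± 0.49, edgeR adjusted p = 0.0585) was called with the replicate number as a block (1.43 ± 0.48, adjusted p = 0.0397). It was also called against control 24 h (1.52 ± 0.55, edgeR adjusted p = 0.0472). EGR2 had 6 and 3 reads, with a log2 fold change of 0.92 ± 0.85 (edgeR adjusted p = 0.429).

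The LatB 24 h libraries were compared with control 24 h. EGR1, EGR3, JUN and JUNB rose and 0 members fell, 4 of 10 beside 40.8% of all genes. The median of the members was 0.56, against 0.00812 over all genes.

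EGR1 was at 1.29 and 1.25 TPM at control 24 h and at 2.39, 2.66 and 2.51 TPM at LatB 24 h. The groups were far apart and the treated replicates close together, with a log2 fold change of 1.02 ± 0.20 (edgeR adjusted p = 0.00126). The call held in all 12 alternative fits, including that against control 0 h (1.39 ± 0.18). EGR3 had 4 and 9 reads at control 24 h and 26, 16 and 28 at LatB 24 h, a log2 fold change of 1.85 ± 0.51 (edgeR adjusted p = 0.0105). EGR2, with 6 and 2 reads against 12, 8 and 11, did not pass (1.34 ± 0.73, edgeR adjusted p = 0.163).

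JUN was at 48.8 and 51.0 TPM at control 24 h and at 66.2, 59.8 and 66.8 TPM at LatB 24 h, a rise of 0.41 ± 0.11 on the log2 scale (edgeR adjusted p = 0.0105). It was thus called higher at 6, 12 and 24 h. JUNB was at 3.52 and 3.97 TPM at control 24 h and at 5.0, 5.34 and 5.04 TPM at LatB 24 h, with a log2 fold change of 0.53 ± 0.14 (edgeR adjusted p = 0.00758). These treated values lay close to the 5.13, 5.17 and 5.27 TPM of control 0 h, against which JUNB at LatB 24 h differed by 0.04 ± 0.12 (edgeR adjusted p = 0.811). The JUNB call therefore rests on which control is used, and the calls of JUN, JUNB and EGR3 were all lost without control 24 h replicate 1 (adjusted p = 0.0921, 0.0946 and 0.119).

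JUND varied most between replicates at 24 h, with 140, 82.8 and 112 TPM, and its log2 fold change of 0.31 ± 0.12 missed the threshold (edgeR adjusted p = 0.0528). FOS was at 5.87, 9.03 and 7.55 TPM, above the 4.90 and 5.32 TPM of control 24 h in each library, yet was not called (0.58 ± 0.24, edgeR adjusted p = 0.0651). FOSL2 was at 16.7, 12.2 and 12.4 TPM and overlapped its control (0.13 ± 0.13, edgeR adjusted p = 0.458). Against control 0 h instead, FOSL2 (0.32 ± 0.12, adjusted p = 0.0370) and EGR2 (1.86 ± 0.70, adjusted p = 0.0471) at LatB 24 h were called. FOSB (0.77 ± 0.36) and FOSL1 (0.41 ± 0.46) were not called either.

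Between LatB 6 h and LatB 24 h, 4 members rose and 0 fell, beside 37.9% of all genes called. The median of the members was 0.27, against 0.00245 over all genes. EGR1 rose by 1.94 ± 0.18 on the log2 scale (edgeR adjusted p = 5.34e-06), from 0.541, 0.799 and 0.525 TPM, with the groups well separated. FOSL1 (1.63 ± 0.46), FOSB (0.90 ± 0.32) and JUNB (0.42 ± 0.12) rose with edgeR adjusted p of 0.0129, 0.0425 and 0.0163. FOSL1 was not called without LatB 24 h replicate 1, which held 34 of its 67 reads at that time (1.15 ± 0.45, adjusted p = 0.0658), and FOSB was not called when any of 5 of the 6 libraries was left out. JUNB was not called without LatB 6 h replicate 2 (adjusted p = 0.0632) or without LatB 24 h replicate 2 (adjusted p = 0.0572). These comparisons share libraries with those above, so they are not separate evidence.

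The change of the LatB effect from 3 h to 24 h was tested directly. The later effect was taken against its vehicle group, control 24 h. For the earlier effect only the libraries from before treatment served as reference, so it mixes 3 h in culture with the drug. The LatB effect was higher at 24 h for 2 members and lower for 2, beside 27.9% of all genes. The median of the members was -0.0685, against -0.0111 over all genes. The effect on EGR1 was 1.43 ± 0.27 higher on the log2 scale (edgeR adjusted p = 0.00181) and that on JUNB 0.72 ± 0.18 higher (edgeR adjusted p = 0.0102). Shifts between the controls enter these differences. Such shifts were 0.37 ± 0.20 for EGR1 and -0.49 ± 0.14 for JUNB, and neither was called. The effect on FOSL2 was 0.57 ± 0.17 lower (a difference of -0.57, edgeR adjusted p = 0.0241) and that on JUND 0.56 ± 0.16 lower (a difference of -0.56, edgeR adjusted p = 0.0171). The effect on FOS (-0.56 ± 0.31, edgeR adjusted p = 0.205) and on EGR2 (-2.01 ± 1.03, edgeR adjusted p = 0.169) was not shown to differ between the times. EGR1 passed in all 17 alternative fits, JUNB and JUND each in 16, and FOSL2 in 10. JUNB lost its call without control 24 h replicate 1 (0.63 ± 0.21, adjusted p = 0.0629) and JUND without control 24 h replicate 2 (-0.51 ± 0.18, adjusted p = 0.0691).

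Between the controls, 0 of the 10 members were called, beside 0.251% of all genes. By edgeR, 1414 genes had an unadjusted p under 0.05, and 1 of these was a member. JUNB, at 5.13, 5.17 and 5.27 TPM at control 0 h and 3.52 and 3.97 TPM at control 24 h, had a log2 fold change of -0.49 ± 0.14 (edgeR adjusted p = 0.189). DESeq2 also called 0 members. The next largest difference with a narrow interval was that of EGR1 (0.37 ± 0.20, edgeR adjusted p = 0.699), whose 2 libraries at 24 h lay above the 3 at 0 h in TPM. LatB 3, 6 and 12 h share control 0 h, which was sampled before them, so time in culture and the drug cannot be told apart there.

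The composition of each family moved with these changes. FOSL2 held 62.6% ± 2.11 of the summed TPM of the FOS genes at control 0 h and FOS 33.8% ± 3.09. At LatB 3 h the share of FOS ranged from 36.0 to 47.2%, against 30.3 to 36.2% at control 0 h, so the ranges just touched. At 12 h it was 21.5 and 11.5%. JUND held 63.3% ± 0.712 of the JUN genes' TPM at control 0 h and 71.9 to 74.8% at LatB 3 h, and the JUN gene itself held 33.2% ± 0.744 and then 23.4 to 26.5%, with no overlap for either. JUNB held 3.69% or less in every library.

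EGR1 held 76.6 to 87.6% of the summed TPM of the EGR genes at control 0 h and EGR2 1.78 to 16.8%. At LatB 3 h EGR1 held 35.5 to 57.3% and EGR2 30.3 to 48.2%, and at 6 h EGR1 held 40.2 to 67.6% and EGR2 16.8 to 41.3%. The 6 h range of EGR2 thus began where its control range ended. As a share of estimated reads EGR2 held a mean of 28.5% at 3 h, against 40.2% of TPM. At 12 h and 24 h of LatB EGR1 again held 79.6 to 90.9%. The summed EGR level itself was 1.18 ± 0.192 TPM at control 0 h, 1.54 ± 0.564 TPM at 3 h and 2.98 ± 0.146 TPM at LatB 24 h. Shares are described here without a test.

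**Figure D3:**
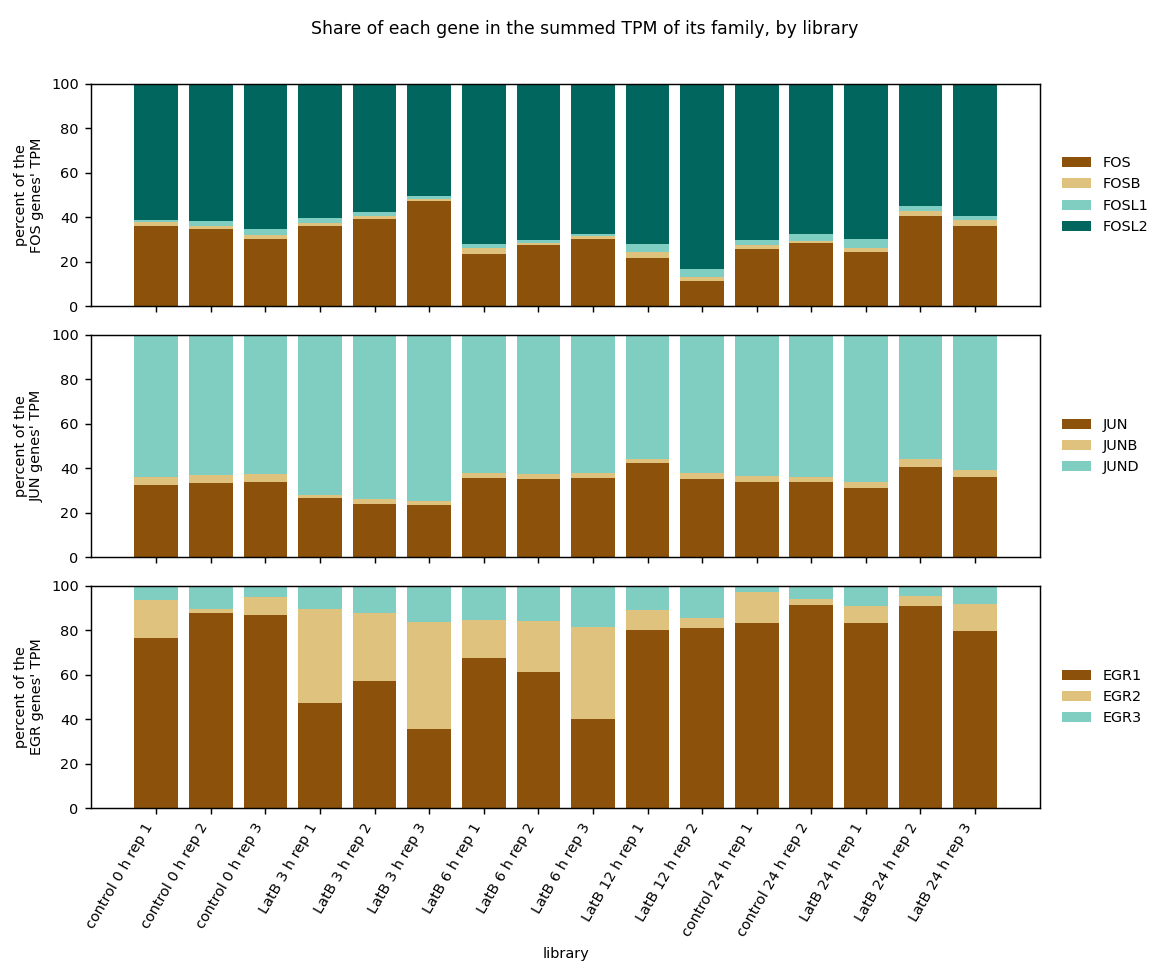
Percent of the summed TPM of the FOS, JUN and EGR genes (vertical axes, 0 to 100) held by each gene in each of the 16 libraries. EGR2 takes 30.3 to 48.2% in the LatB 3 h libraries and 16.8 to 41.3% in those of 6 h, and JUND holds 71.9 to 74.8% at 3 h.

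The genes also differ in structure. In GENCODE 44 JUN, JUNB and JUND have 1 exon in their leading transcripts, EGR1, EGR2 and EGR3 have 2, and FOS, FOSL1 and FOSL2 have 4. JUN, JUNB and EGR1 had 1 transcript in the files. FOS-201 held at least 88.6% of the TPM of FOS in every library and FOSL2-201 at least 76.4% of that of FOSL2. JUND was divided between JUND-201 (75.9 to 85.9%) and JUND-202 (14.1 to 24.1%). For FOSB, FOSL1, EGR2 and EGR3 the leading transcript changed between libraries, and with these few reads the transcripts were not told apart.

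Other immediate early genes gave a background for these changes. Of 27 listed, 23 were tested, and at 3 h 15 rose and 3 fell, with a median log2 fold change of 0.52. At 6 h 11 rose and 5 fell, at 12 h 8 rose and 5 fell, and at 24 h 8 rose and 4 fell. The medians at these 3 times were 0.18, 0.0297 and 0.17. Over all genes 31.6, 43.3, 35.8 and 40.8% were called at 3, 6, 12 and 24 h. MYC, a growth regulator, rose by 2.48 ± 0.26 at 3 h and 1.44 ± 0.30 at 24 h on the log2 scale. The kinase gene SIK1 (2.34 ± 0.33, uncertain because the genome build holds a near-identical copy) and the orphan nuclear receptor genes NR4A2 (1.88 ± 0.20) and NR4A3 (1.69 ± 0.21) also rose at 3 h. ARC, an SRF-responsive gene known from neurons, rose at 12 h (2.48 ± 0.62) and 24 h (3.77 ± 0.60). From 3 h to 6 h, 1 of the 23 rose and 9 fell, with a median of -0.46, beside 22.2% of all genes called. The effect at 24 h was lower than at 3 h for 10 and higher for 4, beside 27.9% of all genes called. Among them were NR4A2 (-2.65 ± 0.29) and ARC (3.38 ± 0.96). All edgeR adjusted p of these named changes were 0.0186 or less.

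**Figure D4:**
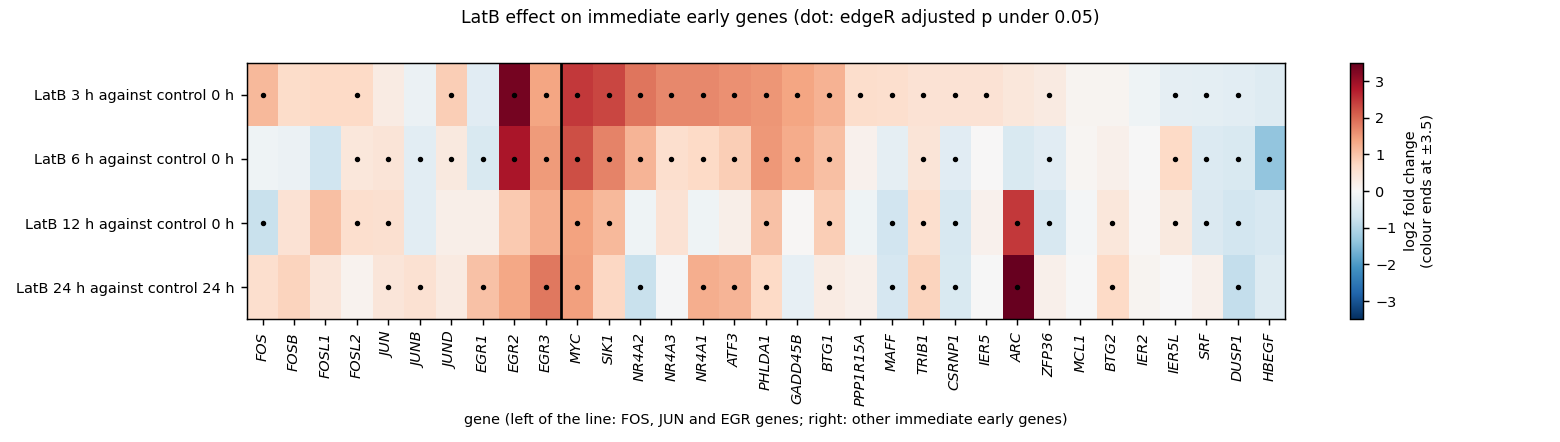
Colour gives the log2 fold change of LatB against control at 4 times (rows) for the 10 members and 23 other immediate early genes (columns), and dots mark an edgeR adjusted p under 0.05. Red dominates the row of 3 h, where 15 of the other 23 genes and 5 of the 10 members rose.

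Genes whose proteins pair with FOS or JUN proteins were listed too. Of 12 listed, 10 were tested, and 5 rose and 0 fell at 3 h and 4 rose and 2 fell at 6 h. At 12 h 2 rose and 4 fell, and at 24 h 3 rose and 5 fell. The shares of all genes called at these times were 31.6, 43.3, 35.8 and 40.8%. The stress gene ATF3, which is in the immediate early list too, rose by 1.61 ± 0.10 at 3 h and 1.20 ± 0.12 at 24 h on the log2 scale. JDP2, an AP-1 repressor, fell by 1.3 ± 0.13 at 12 h and the small MAF gene MAFK by 1.36 ± 0.14. The edgeR adjusted p of these changes were 8.96e-06 or less.

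Of 19 listed regulators upstream of the members, all were tested. At 3 h 9 rose and 3 fell, and at 6 h 7 rose and 5 fell. At 12 h 2 rose and 6 fell, and at 24 h 6 rose and 4 fell. Beside these counts stand 31.6, 43.3, 35.8 and 40.8% of all genes called at the same times. MAP3K1, a kinase of the JNK cascade, fell by 1.10 ± 0.08, 1.09 ± 0.08, 1.09 ± 0.10 and 1.06 ± 0.09 at the 4 times. MAPK8 (JNK1) rose by 0.37 ± 0.04 at 3 h and 0.58 ± 0.04 at 6 h. SRF fell by 0.35 ± 0.07 at 3 h, 0.47 ± 0.08 at 6 h and 0.51 ± 0.09 at 12 h. At 3 h the ETS-family genes ELK1 (0.39 ± 0.05) and ELK4 (0.32 ± 0.06) and the coactivator gene MRTFA (0.24 ± 0.04) rose. ELK3 and MRTFB were not called at that time. The LatB effect on SRF was 0.52 ± 0.11 higher at 24 h than at 3 h. The edgeR adjusted p of these changes were 0.00378 or less. At 6 h ELK1 (0.17 ± 0.05) and MRTFA (0.16 ± 0.04) were called higher and ELK4 (-0.18 ± 0.06) lower. Their edgeR adjusted p were 0.0233, 0.00915 and 0.0337.

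The EGR corepressor genes NAB1 and NAB2 were called in opposite directions at 12 h and 24 h. NAB1 fell at all 4 times, by 0.57 ± 0.06, 0.50 ± 0.06, 0.63 ± 0.07 and 0.35 ± 0.07 on the log2 scale. NAB2 was not called at 3 h (-0.24 ± 0.10) or 6 h (-0.0545 ± 0.0967). It rose at 12 h (0.30 ± 0.11) and at 24 h (0.59 ± 0.11), and its effect was 0.83 ± 0.14 higher at 24 h than at 3 h (edgeR adjusted p = 0.000962). EGR1 was also called higher at 24 h.

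Textbook AP-1 targets were called in both directions at 3, 6 and 12 h and only lower at 24 h. Of 18 listed, 16 were tested, and 2 rose and 2 fell at 3 h and 2 rose and 4 fell at 6 h. At 12 h 3 rose and 4 fell, and at 24 h 0 rose and 4 fell, with a median of -0.48 at 24 h. Over all genes 31.6, 43.3, 35.8 and 40.8% were called at these times, and the list as a whole was not tested. The cytokine genes IL11 (1.05 ± 0.15) and LIF (0.87 ± 0.20) rose at 3 h, and the adhesion receptor gene CD44 (-0.64 ± 0.13) and the keratin gene KRT18 (-0.47 ± 0.07) fell. KRT18 fell further, by 1.88 ± 0.08 at 12 h, and CCND1 (cyclin D1) fell by 0.82 ± 0.08. The edgeR adjusted p of these changes were 0.00505 or less.

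Of 9 heat shock genes, read as signs of protein stress, 2 rose at 3 h, 4 rose and 1 fell at 6 h, and 7 rose at each of 12 h and 24 h. Over all genes 31.6, 43.3, 35.8 and 40.8% were called at the 4 times. The 2 that rose at 3 h were DNAJB1 (0.25 ± 0.06) and HSP90AA1 (0.20 ± 0.05), with edgeR adjusted p of 0.00409 and 0.0129. The summed level of the 9 genes was 2073 to 2231 TPM at control 0 h and 2179 to 2396 TPM at LatB 3 h, so the ranges overlapped. At LatB 24 h it was 3053 to 3331 TPM. The part of stress in the members' changes was not tested.

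The genes whose log2 CPM over the 16 libraries was most like that of the leading member of each family were named as a description, over libraries that share groups. For FOSL2 they were HERPUD1 (Pearson r = 0.926), DUSP4 (0.906), a phosphatase gene of the MAP kinases, and KCNK1 (0.898). For JUND they were SKI (0.939), BRMS1L (0.938) and TRAF4 (0.935). For EGR1 they were L3MBTL2 (0.946), MRPL13 (0.931) and ZNF28 (0.929).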

How the data were processed

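The members and gene lists were chosen with earlier results of these data known. Polyadenylated RNA of 16 libraries had been sequenced. For each library the authors deposited estimated counts and TPM values for 177456 transcripts. The submitters' processing notes name Salmon 1.3.0, DESeq2 and hg38, while STAR alignment is described in the study's methods, so upstream settings are uncertain and strand use is not given in the sources used here (overlapping antisense genes cannot be told apart). A table of the authors' own comparisons, with 16 columns of per-sample values, was not used.

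Transcripts were joined to GENCODE 44 genes by identifier without version. Of these, 165533 matched and 151923 had the same version, and 2.92 to 3.17% of a library's reads were left out as unmatched. Estimated counts were summed per gene and rounded, and the deposited TPM values were summed per gene. Salmon divides reads between similar transcripts, which makes near-identical genes uncertain. The two-sided quasi-likelihood test of edgeR 4.0.16 (R 4.3.3) was fitted to 6 groups at once, with TMM scaling (factors 0.947 to 1.05) and filterByExpr. P-values were adjusted by Benjamini-Hochberg over 16705 genes, and a gene was called under 0.05. SE is the fold change over the square root of F. The depth of 23609727 to 33515398 reads limits the low genes.

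The text names all 10 members and at most 4 called genes with the largest changes per further list and comparison. SRF at 3 h and the genes of its ETS and MRTF partners at 3 h and 6 h were named in addition. The 3 genes most correlated with the leading member of each family (mean log2 CPM of at least 3) are named too, and markers by level. The script was tested on simulated data. Alternatives were DESeq2 1.42.0, RLE factors, no scaling, no filter, only the compared groups, the other control, a replicate block, CPM or counts for TPM, and leaving out each library.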

Additional observations from a re-analysis of the deposited data

Results flagged for a closer look

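The effect of LatB on 4 members differed between 24 h and 3 h by edgeR's test of the difference itself, with control 24 h as the reference at the later time and control 0 h at the earlier. EGR1 differed by 1.43 on the log2 scale, with 2.39 to 2.66 TPM in the 3 LatB 24 h libraries, and the call held in all 17 alternative fits. JUNB differed by 0.72, and its level was lower at control 24 h than at control 0 h. Its call was lost without control 24 h replicate 1 (adjusted p = 0.0629). JUND differed by -0.56, and its 3 libraries at LatB 24 h ranged from 82.8 to 140 TPM. Its call was lost without control 24 h replicate 2 (adjusted p = 0.0691). FOSL2 differed by -0.57 and was called in 10 of 17 alternative fits. Time in culture and the drug cannot be told apart in the effect at 3 h, and what sets the times apart was not tested.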

How the results depend on the processing

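Some calls of single members held in every alternative that gave a value. These were EGR2, FOS, FOSL2 and JUND at 3 h, JUN and EGR2 at 6 h, JUN at 12 h and EGR1 at 24 h. The calls of FOS and JUND between LatB 6 h and 3 h held as well. So did those of EGR1 between LatB 24 h and 6 h and for the difference of effects. Without scaling factors the median of all genes moved to -0.10 at 6 h and to 0.14 between LatB 24 h and 6 h, and the share of calls that were higher moved from 53.3 to 36.1% at 3 h, from 52.8 to 37.7% at 6 h, from 50.1 to 73.8% between LatB 24 h and 6 h, and from 52.1 to 69.0% for the difference of effects. In that setting FOSL2 (0.074), JUN (0.091) and JUND (0.022) changed sign between LatB 24 h and 6 h, and none of them was called.

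The 42 genes called between the controls became 8 with RLE factors, 7 without scaling, 91 without the filter, 248 with DESeq2 and 218 when only both control groups were fitted. The JUN value there, near 0, changed sign in these settings (0.0041, 0.017, 0.016, 0.0040 and 0.0028). Fitting the compared groups alone, 2828 genes and 1 member were called at 12 h, and 5 members between LatB 6 h and 3 h. Against the other control JUNB changed sign at 3 h (0.30), 6 h (0.12) and 12 h (0.13), FOS at 6 h (0.11) and EGR1 at 12 h (-0.16). As a share of estimated counts instead of TPM, FOSL2 held 85.4% of its family and JUND 50.4% at control 0 h, since counts grow with transcript length.

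No pairing of the samples by replicate number was seen, although a weak pairing could be missed with so few libraries per group. Over 36 pairs with the same number the correlation of deviations had a median of -0.0231 (-0.241 to 0.116), against 0.0118 for other pairs. With the number as a replicate block, 6 genes were called between the controls, JUN (0.0040) and FOSB (0.0024) changed sign there, EGR1 at 6 h (adjusted p = 0.0524) and FOSL1 between LatB 6 h and 3 h (adjusted p = 0.0731) lost their calls, EGR3 at 12 h gained one, and no other call of a member changed.

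Leaving out 1 library at a time gave 4145 to 4720 genes and 4 to 6 members at 3 h, 5934 to 6618 and 4 to 6 at 6 h, 4826 to 6162 and 1 to 4 at 12 h, 4034 to 6424 and 2 to 5 at 24 h, 2 to 9 genes between the controls, 2549 to 2995 and 2 to 2 between LatB 6 h and 3 h, 5059 to 5742 and 2 to 5 between LatB 24 h and 6 h, and 3012 to 4535 and 2 to 4 for the difference of effects. At 24 h, 4034 genes and 2 members were called without control 24 h replicate 1, as were 3012 and 2 for the difference of effects. At 6 h, 4 members were called without any 1 control 0 h library or without LatB 6 h replicate 1, at 12 h 1 without replicate 2, and between LatB 24 h and 6 h 2 without LatB 6 h replicate 2 or LatB 24 h replicate 2. Values that changed sign were not called. These were, between the controls, FOSB (-0.83 to 0.44), JUN (-0.043 to 0.046), EGR2 (-0.50 to 1.19) and EGR3 (-0.87 to 0.17). For the difference of effects they were FOSB (-0.37 to 0.90) and FOSL1 (-0.75 to 0.046). At 24 h FOSL1 ranged from -0.067 to 0.73, and between LatB 6 h and 3 h EGR3 from -0.11 to 0.47. Between LatB 24 h and 6 h the ranges were -0.18 to 0.0099 for FOSL2, -0.27 to 0.020 for JUND and -0.12 to 0.36 for EGR3. The causes were not tested.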
